A study of Mus musculus with 35 samples.

Results

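Gene expression in livers of young mice at 38 h after 70% partial hepatectomy (PH) was compared with that at 24 h after the same operation. In PH most of the liver is removed and the remaining lobes grow back. The comparison takes 6 of the 35 liver samples of a study of regeneration in young and old mice, 3 labelled 38 h and 3 labelled 24 h, and covers the 18193 genes whose probe sets carry a single gene symbol. Each sample was hybridised to an Affymetrix array, on which sets of short probes measure the RNA of each gene. Values are log2 signals made with RMA, which removes background, puts the arrays on a common scale and combines the probes that report on a transcript, so that a difference of 1 is a 2-fold change. All mice were male CB6F1 hybrids, with avertin and isoflurane as anaesthetics, and the young ones, from the Jackson Laboratory, were 5 to 6 months old. Beside the PH livers stand young livers at 38 h (1 array) and 24 h (2 arrays) after sham surgery, in which the liver was handled but not resected. Young livers at 48 h after PH (3 arrays), untreated young livers (0 h, 3 arrays) and livers at 38 and 24 h after PH (3 arrays each) of mice aged 25 to 27 months, from the National Institute on Aging, are also used. The 38 h and 24 h livers were collected at different hours of the day, after PH and after sham surgery alike. Whether the replicates of a group came from different mice is not stated in the labels. The value after ± is the standard error (SE) of a difference, not the spread of the arrays listed beside it. The p-values and SEs rest on 1 spread per gene, estimated within all 14 groups of the study and not in the compared samples alone. That spread may be technical.

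Replicates 1 and 2 of the 38 h PH livers were nearly the same sample. Over the 500 genes that vary most, the SD of their differences was 0.166, against 0.34 to 2.04 in the other 28 replicate pairs. Their values were not identical. They were averaged and counted as 1 sample, which leaves n = 2 at 38 h. Some counts with 3 samples as labelled are given beside, while most lists and the single genes are given with 2 samples only. With 3 samples as labelled, 2 of 47 named genes that did not pass were called. The 6 arrays correlated with each other at r = 0.9816 to 0.9969 across genes. The 3' minus 5' signal of the Gapdh control probes, a measure of RNA integrity, was 0.173, 0.174 and 0.172 at 38 h after PH, against 0.0564, 0.0855 and 0.128 at 24 h. These do not overlap, while the same measure for Actb does (0.755, 0.578 and 0.536 at 38 h, against 0.609, 0.559 and 0.638 at 24 h). The part of RNA integrity in the results was not tested. Hepatocyte marker genes were high in all 6 livers, with a mean log2 level of 13.44, 13.47 and 13.54 at 38 h, against 13.57, 13.59 and 13.54 at 24 h.

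Hepatocytes of the adult liver rest outside the cell cycle. After resection many re-enter it at about the same time: D-type cyclins carry them through G1, E2F transcription factors switch on genes of DNA replication, and cyclin-dependent kinase Cdk1 later drives entry into mitosis. Genes of S phase are switched on before those of G2 and mitosis, many of which are controlled by the MuvB complex through a short promoter element called the CHR. The liver is also an organ in which circadian clock genes swing widely over the day.

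In limma's moderated test, 285 genes rose (1.57%) and 62 fell (0.341%) at 38 h relative to 24 h after PH at a Benjamini-Hochberg adjusted p under 0.05, which is what "rose" and "fell" mean throughout. An unadjusted p under 0.05 was reached by 2070 genes, and the median difference over all genes was -0.01. Of the genes that rose 140 changed more than 2-fold, and of those that fell 8. The arrays of the 2 times did not overlap for 281 of the 285 that rose and all 62 that fell. Over all genes the shares were 11.0% with 38 h higher and 14.5% with 38 h lower. Lack of overlap thus adds no support to a gene that was called. Cell cycle genes made up much of the genes that rose: in 10 lists with 257 genes, 132 rose and 0 fell (in limma, with 9 to 38 members a list at an unadjusted p under 0.05 in either direction). In the 30 other lists, of metabolism, signalling, stress and markers of other cells, 2 of 593 genes rose and 3 fell, and of 17343 genes in no list 151 rose and 59 fell. The lists were chosen with earlier results of these data known, so their counts are a description only. The counts over all genes depended on single arrays. Without 38 h replicate 3, which leaves 1 sample at 38 h, 8 and 0 genes passed as higher and lower. These counts were 132 and 23 without 24 h replicate 3, 246 and 32 without 24 h replicate 1, 236 and 30 without 24 h replicate 2, and 325 and 98 without 38 h replicate 1. With 3 samples at 38 h as labelled they were 366 and 152. With the arrays of the compared groups alone they were 45 and 21, and 41 of 58 named genes that had passed no longer did. Of 58 named genes that passed, 4 also passed with each PH array left out in turn, Nuf2, Haus8, Lonrf3 and Cox6b2, and the other 54 did not.

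The mean level of each list per array shows how the livers compare. For 40 genes of mitotic kinases, spindle and condensin it was 9.13, 9.04 and 9.98 at 38 h, against 8.15, 7.96 and 7.65 at 24 h. In all 10 cell cycle lists replicate 3 was the highest 38 h array and replicate 3 the lowest 24 h array, and the times did not overlap. Sham livers stayed near untreated ones in the mitotic list, at 7.46 at 38 h against 7.33 and 7.41 at 24 h, with 7.37, 7.41 and 7.40 at 0 h. Relative to 0 h, 2170 genes were called higher (11.9%) and 2351 lower (12.9%) at 38 h after PH, and 1401 higher (7.7%) and 1688 lower (9.28%) at 24 h. In bulk RNA, more cycling cells and more RNA of these genes per cell cannot be told apart.

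**Figure D1:**
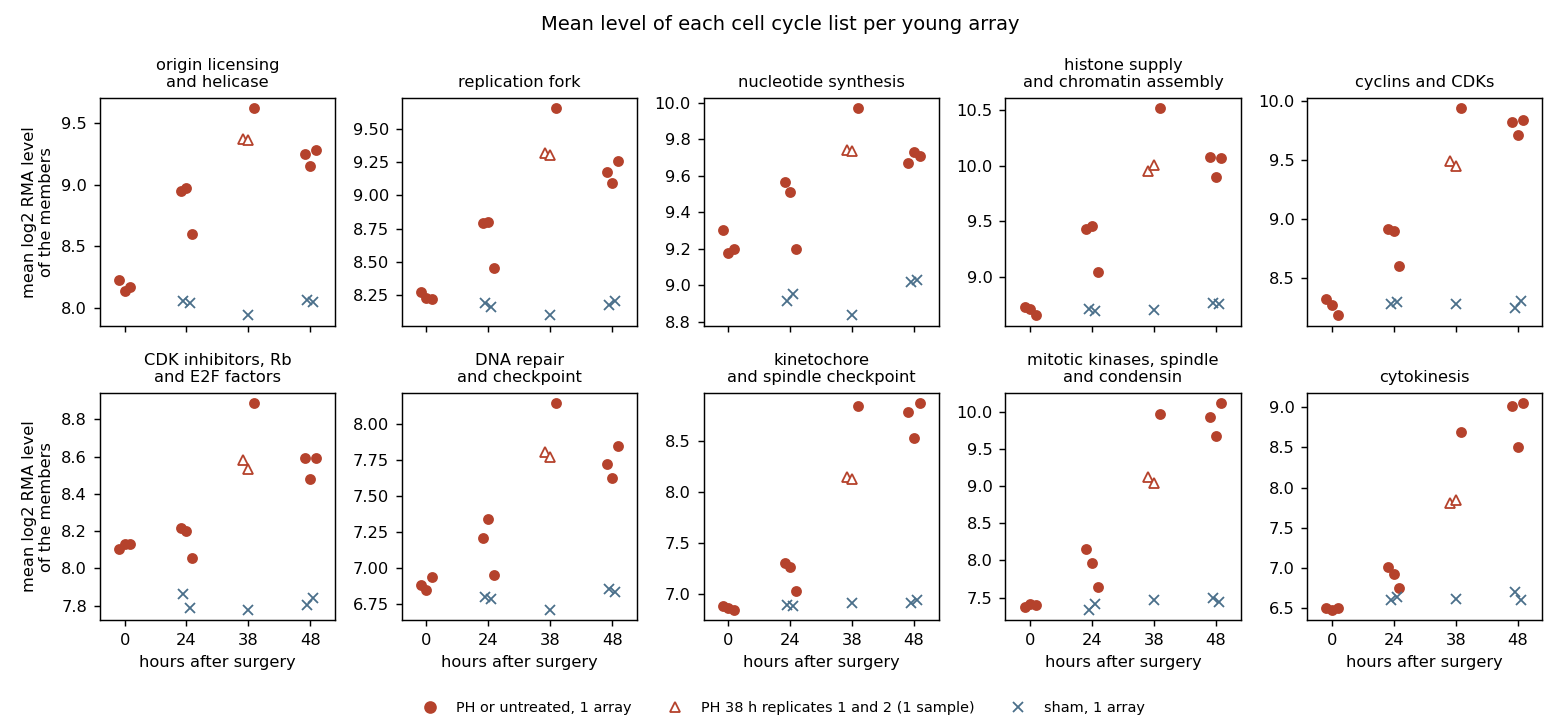
Mean log2 RMA level of the members of each of 10 cell cycle lists (vertical axis) by hours after surgery (horizontal axis), 1 point per young array; filled circles are untreated (0 h) and PH arrays, open triangles the near-identical PH replicates 1 and 2 at 38 h, and crosses sham arrays. In each panel all 38 h PH arrays lie above all 24 h PH arrays, in the mitotic list at 9.04 to 9.98 against 7.65 to 8.15.

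In the list of origin licensing and helicase genes, which load and start the replicative helicase, 5 of 24 members rose and 0 fell, with a median difference of 0.88. Dbf4, the activating subunit of the Cdc7 kinase that fires origins, measured 9.003, 9.14 and 10.13 at 38 h, against 7.91, 7.62 and 7.32 at 24 h. It rose by 1.99 ± 0.35 (adjusted p = 0.00303), while its other probe set differed by -0.16. Mcm2, a subunit of the helicase, measured 10.60, 10.61 and 10.66 at 38 h, against 9.24, 9.70 and 8.90 at 24 h. The 38 h arrays, which count as 2 samples, lie above every 24 h array. Mcm2 rose by 1.35 ± 0.29 (adjusted p = 0.0128). Gins2, of the GINS complex that travels with the helicase, rose by 1.23 ± 0.25 (adjusted p = 0.00805). Mcm3 (0.96) and the origin recognition subunit Orc6 (0.83) also rose. The other helicase subunits had differences of 1.64 for Mcm5, 1.35 for Mcm6, 1.27 for Mcm7 and 0.98 for Mcm4 that did not pass. Arrays did not overlap, with 38 h higher, for 15 members, against 11.0% of all genes. They did not overlap, with 38 h lower, for 4 members, against 14.5% of all genes. Differences were negative for 6 members, down to -0.88 for Mcm10, which did not pass. The count of 5 became 0 without 38 h replicate 3 (median 0.67), 1 without 24 h replicate 3 (median 0.65) and 8 with 3 samples at 38 h as labelled.

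At the replication fork, where DNA is unwound, copied and ligated, 18 of 30 members rose and 0 fell, with a median difference of 0.78. Rfc4, a subunit of the clamp loader, measured 9.13, 9.25 and 10.01 at 38 h, against 8.01, 8.39 and 7.37 at 24 h, and rose by 1.67 ± 0.30 (adjusted p = 0.00362). Pola1, the catalytic subunit of DNA polymerase alpha, measured 8.78, 8.87 and 9.60 at 38 h, against 8.11, 7.95 and 7.18 at 24 h. It rose by 1.47 ± 0.35 (adjusted p = 0.023). In both genes the times are separate and replicate 3 is the extreme array at each time. Lig1, the ligase that joins Okazaki fragments, rose by 1.34 ± 0.30 (adjusted p = 0.0171). Pcna, the sliding clamp, measured 13.02, 13.04 and 13.35 at 38 h, against 12.30, 12.14 and 11.38 at 24 h, and rose by 1.252 ± 0.27 (adjusted p = 0.0108). Members that did not pass included the primase subunit Prim1 (1.62) and Clspn (0.03), a mediator of the replication checkpoint. The count of 18 became 0 without 38 h replicate 3 (median 0.59) and 5 without 24 h replicate 3 (median 0.65).

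Of the genes of nucleotide synthesis, 4 of 24 members rose and 0 fell, and the median difference was 0.15. Both subunits of ribonucleotide reductase, which makes the building blocks of DNA, were among them. Rrm2 measured 11.72, 11.68 and 12.19 at 38 h, against 10.16, 9.996 and 8.39 at 24 h. It rose by 2.43 ± 0.61 (adjusted p = 0.0349), 5.4-fold, with 24 h replicate 3 far below the other 24 h arrays, and the difference was 1.87 (adjusted p = 0.211) without that array. Rrm1 rose by 1.56 ± 0.32 (adjusted p = 0.00881) and Dut, which removes dUTP, by 1.251 ± 0.29 (adjusted p = 0.0197). Prps1, which makes the ribose precursor of nucleotides, rose by 0.35. Enzymes that build purine and pyrimidine rings differed by -0.05 (Paics), -0.27 (Cad) and 0.17 (Gart) and did not pass. The list's count became 0 without 38 h replicate 3 (median 0.10) and 0 without 24 h replicate 3 (median 0.11).

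In histone supply and chromatin assembly 11 of 16 members rose and 0 fell (median 0.88). Hmgb2, a chromatin protein abundant in proliferating cells, measured 9.72, 9.90 and 11.01 at 38 h, against 8.18, 8.46 and 7.16 at 24 h. It rose by 2.48 ± 0.40 (adjusted p = 0.002). Ezh2, the methyltransferase of Polycomb repressive complex, rose by 1.54 ± 0.30 (adjusted p = 0.00589). The histone variant H2ax measured 10.85, 10.85 and 12.17 at 38 h, against 10.08, 10.08 and 10.004 at 24 h, so that 38 h replicate 3 alone was far above the others. It rose by 1.46 ± 0.32 (adjusted p = 0.0133), and without that array the difference was 0.80 (adjusted p = 0.58). Uhrf1 (1.39) and Dnmt1 (0.90), which copy DNA methylation to the new strand, and the chromatin assembly subunit Chaf1b (1.16) also rose. The linker histone H1f2 differed by -0.54 and did not pass. The count of 11 became 0 without 38 h replicate 3 (median 0.69) and 5 without 24 h replicate 3 (median 0.72).

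Promoters of 2 genes of replication and chromatin that rose are printed to show a sequence that E2F factors are known to bind. They are RefSeq sequences of GRCm38.p6 from 250 bases before to 50 bases after the start of the gene, read 5' to 3' on the gene's strand, with the motif in capitals. Pola1 lies at chrX:93632106-93632405 on the minus strand, with the motif on the other strand 138 bases before the start. Ezh2 lies at chr6:47594981-47595280 on the minus strand, with the motif 3 bases after the start.
Pola1: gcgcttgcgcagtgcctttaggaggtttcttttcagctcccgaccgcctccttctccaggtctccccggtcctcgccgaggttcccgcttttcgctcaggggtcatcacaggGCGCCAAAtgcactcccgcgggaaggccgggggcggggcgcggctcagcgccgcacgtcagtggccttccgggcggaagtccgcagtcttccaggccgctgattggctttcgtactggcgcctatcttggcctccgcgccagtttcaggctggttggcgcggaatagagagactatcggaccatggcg
Ezh2: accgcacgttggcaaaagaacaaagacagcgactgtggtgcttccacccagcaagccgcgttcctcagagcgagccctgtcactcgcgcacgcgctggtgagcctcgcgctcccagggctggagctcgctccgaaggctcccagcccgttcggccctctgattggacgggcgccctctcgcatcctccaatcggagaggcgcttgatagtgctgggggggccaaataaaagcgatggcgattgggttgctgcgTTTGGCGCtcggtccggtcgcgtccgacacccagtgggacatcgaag
The E2F motif was searched as TTTGGCGC or TTTCCCGC on both strands, and in the promoters printed it overlapped no other motif searched. It was found in 34.8% of the promoters of the licensing list, 17.9% of the replication fork list and 26.9% of the DNA repair list, against 2.34% of 18109 promoters of the genes tested. Over all 10 cell cycle lists the share ran from 0.0% in cytokinesis to 34.8% in licensing, with 3.85% in nucleotide synthesis, and over 20 lists outside the cell cycle from 0.0% to 11.5% in interferon response, a list with 0 calls. Among 283 promoters of genes that rose 34 held it, and among 92 promoters of genes that fell 0. A match describes the sequence and does not show binding.

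Among cyclins and CDKs, which drive the phases of the cycle, 9 of 21 members rose and 0 fell (median 0.79). Cdk1, the kinase of mitotic entry, measured 11.27, 11.36 and 12.43 at 38 h, against 9.81, 9.35 and 8.68 at 24 h. The lowest 38 h array lies above the highest 24 h array, and Cdk1 rose by 2.59 ± 0.50 (adjusted p = 0.00584), 6.01-fold. Ccnb2, a B-type cyclin that pairs with Cdk1, measured 8.86, 8.68 and 10.20 at 38 h, against 7.45, 7.22 and 6.80 at 24 h, and rose by 2.33 ± 0.50 (adjusted p = 0.0125). Ccna2, the cyclin of S and G2 phase, rose by 1.91 ± 0.40 (adjusted p = 0.00951). The E-type cyclins, which start S phase, rose too: Ccne2 measured 8.65, 8.33 and 8.58 at 38 h, against 6.93, 7.53 and 5.95 at 24 h, a rise of 1.73 ± 0.40 (adjusted p = 0.0195). Ccne1 rose by 1.17 ± 0.23 (adjusted p = 0.00585), with arrays at 9.90 to 10.17 at 38 h, against 8.80 to 9.14 at 24 h. Wee1 (1.56) and Pkmyt1 (0.63), which restrain Cdk1, and Cdc25c (0.75), which releases it, all rose. Ccnd1, the cyclin of G1, measured 12.05, 11.99 and 11.80 at 38 h, against 11.33, 11.19 and 10.47 at 24 h. The times do not overlap, but its difference of 0.91 ± 0.55 did not pass (adjusted p = 0.587). The count of 9 became 0 without 38 h replicate 3 (median 0.48) and 3 without 24 h replicate 3 (median 0.72).

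Of CDK inhibitors, Rb and E2F factors, which hold or open the gate out of G1, 7 of 24 members rose and 0 fell (median 0.42). The INK4 inhibitor Cdkn2c measured 10.51, 10.62 and 11.86 at 38 h, against 9.71, 9.36 and 8.73 at 24 h, and rose by 1.95 ± 0.42 (adjusted p = 0.0123). Its relative Cdkn2d rose by 1.31 ± 0.28 (adjusted p = 0.00976). Lin54, the MuvB subunit that binds the CHR element, rose by 1.10 ± 0.26 (adjusted p = 0.0223). E2f1 (0.97), E2f7 (1.07) and their partner Tfdp1 (0.72) rose. Cdkn1a, an inhibitor induced by p53, measured 11.76, 11.75 and 11.46 at 38 h, against 10.37, 9.96 and 9.98 at 24 h. The times do not overlap, but its difference of 1.504 ± 0.47 did not pass (adjusted p = 0.117). Foxm1, a transcription factor of mitotic genes, differed by 0.35 ± 0.14 on its brightest probe set (adjusted p = 0.299), while 1 of its 4 probe sets rose. The list's count became 0 without 38 h replicate 3 (median 0.29) and 3 without 24 h replicate 3 (median 0.39).

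In DNA repair and checkpoint, 11 of 27 members rose and 0 fell (median 0.59). Esco2, which acetylates cohesin so that sister chromatids hold together, measured 8.25, 8.23 and 9.89 at 38 h, against 5.72, 5.91 and 5.17 at 24 h. All 38 h arrays exceed all 24 h arrays, as the rule that named this gene requires. Esco2 rose by 3.46 ± 0.59 (adjusted p = 0.00243), 11.0-fold. Brca1, which acts in homologous recombination, rose by 1.43 ± 0.35 (adjusted p = 0.0268), but did not pass with the median of its probe sets. The kinases Atr (0.31) and Atm (0.15), which sense damaged DNA, did not pass. Left-out arrays gave a count of 0 without 38 h replicate 3 (median 0.44), 7 without 24 h replicate 1 (median 0.65) and 4 without 24 h replicate 3 (median 0.56).

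In the kinetochore and spindle checkpoint list, whose products tie chromosomes to the spindle and delay anaphase, 26 of 34 members rose and 0 fell (median 1.16). Nuf2, of the Ndc80 complex that grips microtubules, measured 8.17, 8.73 and 9.79 at 38 h, against 5.79, 5.69 and 5.06 at 24 h. It rose by 3.603 ± 0.43 (adjusted p = 0.000106), 12.2-fold, and also passed without 38 h replicate 3, at 2.93 (adjusted p = 0.0441). Zwilch, which helps recruit dynein to kinetochores, measured 7.98, 7.95 and 9.09 at 38 h, against 6.35, 6.15 and 5.21 at 24 h, and rose by 2.62 ± 0.41 (adjusted p = 0.0018). Cenpa, the histone that marks centromeres, rose by 2.39 ± 0.46 (adjusted p = 0.00574) on its brightest probe set, and 1 of its 3 probe sets rose. The checkpoint kinases Ttk (2.23) and Bub1 (1.88) and the checkpoint protein Mad2l1 (1.93) rose as well. Arrays did not overlap, with 38 h higher, for 32 members, against 11.0% of all genes, and with 38 h lower for 1 member, against 14.5%. The count of 26 became 1 without 38 h replicate 3 (median 0.80) and 17 without 24 h replicate 3 (median 1.10).

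In the list of mitotic kinases, spindle and condensin, 29 of 40 members rose and 0 fell, and the median difference of 1.57 was the highest of the 10 lists. Birc5 (survivin), a subunit of the chromosomal passenger complex, had the largest rise of all genes that passed. It measured 9.88, 9.89 and 11.62 at 38 h, against 7.95, 6.91 and 6.29 at 24 h, and rose by 3.70 ± 0.73 (adjusted p = 0.00669), 13.0-fold. Mki67, the proliferation marker that coats mitotic chromosomes, measured 10.03, 9.54 and 11.38 at 38 h, against 8.05, 7.48 and 6.65 at 24 h. It rose by 3.19 ± 0.67 (adjusted p = 0.00941). Ube2c, which feeds ubiquitin to the anaphase-promoting complex, measured 9.9998, 10.07 and 11.37 at 38 h, against 8.39, 7.84 and 7.32 at 24 h, and rose by 2.85 ± 0.64 (adjusted p = 0.0155). In each of these genes replicate 3 is the highest 38 h array. The other 38 h arrays also lie above all 24 h arrays, as the rule that named these genes requires. Top2a, which untangles sister DNA, rose by 2.59 ± 0.58 (adjusted p = 0.0158). The kinases Aurkb (2.55), Plk1 (2.48) and Aurka (2.12) and the condensin subunits Smc2 (2.12) and Smc4 (2.08) also rose. Tubulin-binding Stmn1 (2.25) and the spindle protein Tpx2 (-0.07) did not pass. Left-out arrays gave a count of 0 without 38 h replicate 3 (median 1.07) and 16 without 24 h replicate 3 (median 1.49).

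In cytokinesis, the division of the cell body, 12 of 17 members rose and 0 fell (median 1.55). Anln, a scaffold of the contractile ring, measured 8.35, 8.27 and 9.46 at 38 h, against 6.58, 5.96 and 5.73 at 24 h, and rose by 2.80 ± 0.42 (adjusted p = 0.00144). Cep55, needed for the final cut between daughter cells, measured 8.11, 7.90 and 9.02 at 38 h, against 5.94, 6.12 and 5.48 at 24 h. It rose by 2.66 ± 0.42 (adjusted p = 0.00179). Kif20a, a kinesin of the central spindle, rose by 2.45 ± 0.46 (adjusted p = 0.00434), with arrays at 7.17 to 8.87 at 38 h, against 5.59 to 5.76 at 24 h. Septin9 (-0.24), Kif14 (-0.18) and Cit (-0.11), which also act in cytokinesis, did not pass. The list's count became 0 without 38 h replicate 3 (median 0.81).

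**Figure D2:**
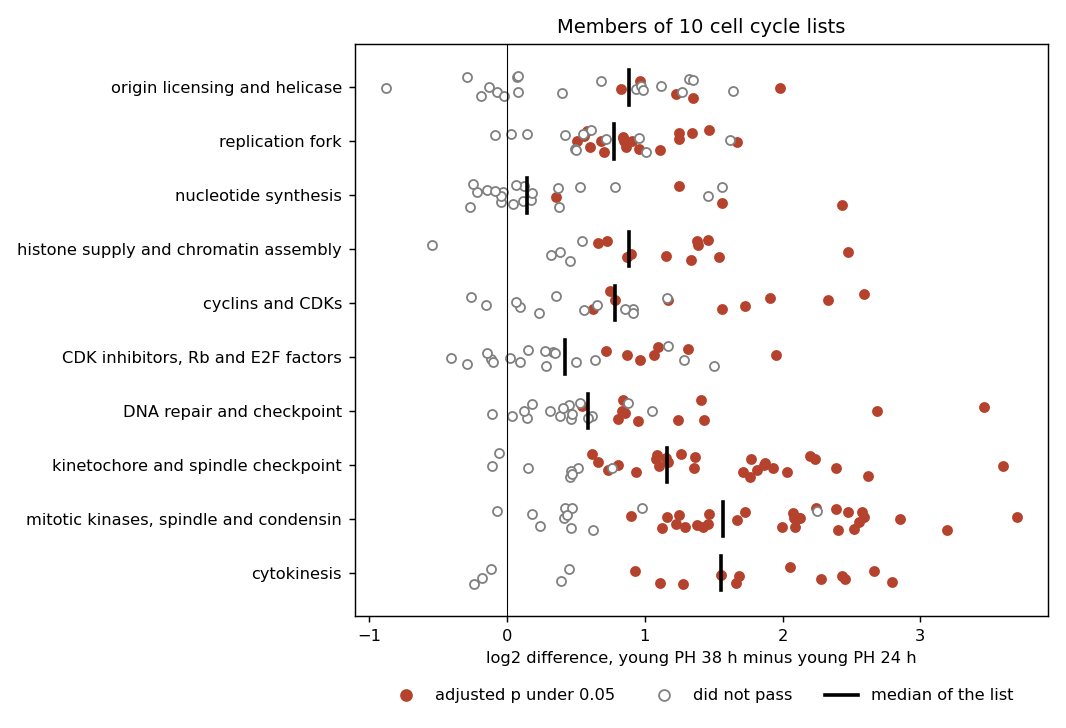
Log2 difference between young livers at 38 h and 24 h after PH (horizontal axis) for each member of 10 cell cycle lists (vertical axis); filled points passed an adjusted p under 0.05, open points did not, and black bars are list medians. The medians lie between 0.15 for nucleotide synthesis and 1.57 for the mitotic list, and the scatter of points within a list's row has no meaning.

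Promoters of 3 genes of G2 and mitosis that rose are printed to show the CHR element, with TTTGAA in capitals (TTCAAA where it reads on the other strand). They are laid out as the RefSeq promoters above, in GRCm38.p6, and all lie on the minus strand. Cdk1 lies at chr10:69352863-69353162 with the element 71 and 15 bases before the start. Ccnb2 lies at chr9:70421505-70421804 with the element 167 bases before and 4 bases after the start. Top2a lies at chr11:99024140-99024439 with the element 179 bases before the start and, on the other strand, 23 bases before it.
Cdk1: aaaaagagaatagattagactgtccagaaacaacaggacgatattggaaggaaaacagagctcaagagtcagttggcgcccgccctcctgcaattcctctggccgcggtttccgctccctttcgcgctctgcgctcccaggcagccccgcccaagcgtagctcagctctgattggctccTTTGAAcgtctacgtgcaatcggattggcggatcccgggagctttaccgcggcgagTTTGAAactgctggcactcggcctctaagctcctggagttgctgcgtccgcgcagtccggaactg
Ccnb2: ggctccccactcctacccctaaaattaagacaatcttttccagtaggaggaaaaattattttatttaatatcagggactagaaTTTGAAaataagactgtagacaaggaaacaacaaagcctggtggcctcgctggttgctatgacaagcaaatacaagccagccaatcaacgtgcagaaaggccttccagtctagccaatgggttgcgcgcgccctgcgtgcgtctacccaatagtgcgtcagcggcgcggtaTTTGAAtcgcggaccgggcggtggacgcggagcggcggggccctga
Top2a: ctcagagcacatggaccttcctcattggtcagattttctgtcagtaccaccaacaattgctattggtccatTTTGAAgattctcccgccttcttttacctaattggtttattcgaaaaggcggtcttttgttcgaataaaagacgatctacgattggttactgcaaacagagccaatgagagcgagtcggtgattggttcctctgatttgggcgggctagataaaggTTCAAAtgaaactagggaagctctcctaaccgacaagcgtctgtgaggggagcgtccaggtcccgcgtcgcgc
TTTGAA stood on either strand in 71.4% of the promoters of the mitotic list, 63.6% of the cytokinesis list and 41.2% of the kinetochore list, against 13.4% of the promoters of all genes tested. In the other 7 cell cycle lists the share ran from 3.85% in DNA repair to 37.5% in cyclins and CDKs, with 7.14% at the replication fork, 21.1% in histone supply and 26.1% in licensing. Over the 20 lists outside the cell cycle it ran from 0.0% to 26.1% in plasma proteins of hepatocytes, a list with 0 calls. Among genes that rose the share was 31.4%, and among genes that fell 7.61%. The E-box CACGTG, to which clock and Myc factors bind, stood in 10.6% of the promoters of genes that rose and 10.9% of those that fell, against 8.72% of all. The D-box TTATGTAA stood in 0.0% of either, against 0.69% of all.

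Some of the largest rises lay outside the lists. D17H6S56E-5, for which no role is given here, measured 12.96, 12.82 and 13.35 at 38 h, against 10.73, 10.08 and 9.29 at 24 h, and rose by 3.09 ± 0.62 (adjusted p = 0.00709), 8.49-fold. Shcbp1, a partner of the Shc adaptor, measured 9.14, 9.38 and 10.53 at 38 h, against 7.75, 6.74 and 6.55 at 24 h, and rose by 2.88 ± 0.53 (adjusted p = 0.00434). Pbk, a kinase of dividing cells, measured 9.80, 9.81 and 10.90 at 38 h, against 8.15, 7.69 and 7.07 at 24 h, and rose by 2.71 ± 0.49 (adjusted p = 0.00354). These 3 genes were named by a rule that asks for no overlap between the times. Without 38 h replicate 3 the differences were 2.86, 2.25 and 2.17 and did not pass. Haus8, a subunit of the augmin complex that branches spindle microtubules, measured 8.66, 8.74 and 8.67 at 38 h, against 7.72, 7.64 and 7.27 at 24 h. The 38 h arrays, which count as 2 samples, were close, while the 24 h arrays ranged from 7.27 to 7.72. Haus8 rose by 1.14 ± 0.12 (adjusted p = 4.29e-05). It passed without 38 h replicate 3 as well (adjusted p = 0.00414).

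The 62 genes that fell had smaller changes, with a median of -0.53. Their median difference between 38 and 24 h after sham surgery, with 1 array at 38 h, was -0.27. For the 285 genes that rose it was 0.03. Nr1d1, the clock repressor REV-ERB alpha, had the largest fall. It measured 8.08, 7.89 and 8.13 at 38 h, against 9.76, 9.67 and 9.82 at 24 h, and fell by 1.69 ± 0.31 (adjusted p = 0.004). Onecut1 (HNF6), a transcription factor of hepatocytes and bile ducts, measured 8.12, 8.19 and 8.37 at 38 h, against 8.84, 9.78 and 10.13 at 24 h. It fell by 1.32 ± 0.34 (adjusted p = 0.0439), and its 24 h arrays spread widely. Onecut1 did not pass with the median of its probe sets or with arrays centred on their medians. Sco2, a copper chaperone of cytochrome c oxidase, measured 9.91, 10.01 and 10.11 at 38 h, against 11.16, 11.24 and 11.31 at 24 h, and fell by 1.20 ± 0.22 (adjusted p = 0.004). Its 24 h arrays lie in a narrow band, and its 38 h arrays count as 2 samples. Egln3, a prolyl hydroxylase that marks hypoxia-inducible factors for destruction, measured 10.26, 10.03 and 10.29 at 38 h, against 11.48, 11.79 and 10.70 at 24 h, and fell by 1.10 ± 0.27 (adjusted p = 0.0276).

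Further falls of named genes were of similar size. Gtf2e1, a subunit of the general transcription factor TFIIE, measured 8.69, 8.70 and 8.62 at 38 h, against 9.89, 9.96 and 9.19 at 24 h. It fell by 1.02 ± 0.17 (adjusted p = 0.0022) on 1 of its 2 probe sets. Hsd17b2, which inactivates sex steroids, fell by 0.96 ± 0.25 (adjusted p = 0.0444), and Slc25a45, of the mitochondrial carrier family, by 0.75 ± 0.14 (adjusted p = 0.004). Hivep1, a zinc finger transcription factor, fell by 1.16 ± 0.27 (adjusted p = 0.021) and the protein kinase D member Prkd3 by 1.11 ± 0.28 (adjusted p = 0.0374). Fam214a fell by 1.22 ± 0.32 (adjusted p = 0.0448), Ttc39b by 0.90 ± 0.22 (adjusted p = 0.0316) and Rgl3, an exchange factor for Ral proteins, by 0.76 ± 0.18 (adjusted p = 0.0238). With the median of a gene's probe sets Prkd3 and Ttc39b did not pass, nor did Egln3 above. Cdo1, which starts the breakdown of cysteine, was the 1 of 29 genes of amino acid catabolism and the urea cycle that fell. It measured 13.25, 13.27 and 13.13 at 38 h, against 13.64, 13.66 and 13.69 at 24 h, and fell by 0.47 ± 0.11 (adjusted p = 0.0243). None of these 9 genes, nor the 4 above, passed without 38 h replicate 3, and all 13 kept their direction.

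The list of core clock and clock output genes held 1 member of 21 that rose and 1 that fell, with a median difference of -0.01. Lonrf3, a RING finger protein placed in that list as a rhythmic liver transcript, measured 9.55, 9.47 and 9.61 at 38 h, against 8.49, 8.33 and 8.25 at 24 h, and rose by 1.21 ± 0.17 (adjusted p = 0.00059). Nr1d1 is the member that fell. Dbp, an output factor of the clock, measured 8.03, 7.95 and 7.81 at 38 h, against 8.998, 9.23 and 7.79 at 24 h, so the times overlap (-0.77, adjusted p = 0.815). The activator Arntl (-0.36) and the repressor Per2 (0.05) did not pass. With 3 samples at 38 h as labelled 2 members rose.

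Sham livers cover the same hours without resection, with 1 array at 38 h against 2 at 24 h. Over all genes 15 rose (0.0824%) and 7 fell (0.0385%) between them, and 1704 had an unadjusted p under 0.05. The counts were 1 and 0 without 24 h sham replicate 1, and 1 and 1 without 24 h sham replicate 2. Median sham differences of the 10 cell cycle lists lay between -0.13 for licensing and 0.09 for the mitotic list, and 0 of their members passed in limma. The calls after sham of Nr1d1, Cox6b2 and Lingo1 were each lost when either 24 h sham array was left out. Nr1d1 fell after sham as well, measuring 7.47 at 38 h after sham, against 9.85 and 9.98 at 24 h (-2.45, adjusted p = 0.0119; adjusted p = 0.0831 without 24 h sham replicate 1 and 0.1 without replicate 2). Cox6b2, a cytochrome c oxidase subunit known from testis, rose after PH, measuring 7.91, 7.70 and 8.22 at 38 h, against 6.54, 6.17 and 6.43 at 24 h (1.63, adjusted p = 0.000106). It also rose after sham, measuring 8.16 at 38 h after sham, against 6.61 and 6.39 at 24 h (1.67, adjusted p = 0.00755; adjusted p = 0.0604 without 24 h sham replicate 1 and 0.0696 without replicate 2). Lingo1, a membrane protein, was the third gene called after both operations, with 0.40 after PH and 0.63 after sham (adjusted p = 0.348 without 24 h sham replicate 1 and 0.0696 without replicate 2). With the median of its probe sets Lingo1 did not pass after PH. For Sco2 the sham difference was -0.69 and for Onecut1 -0.65, and neither passed.

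**Figure D3:**
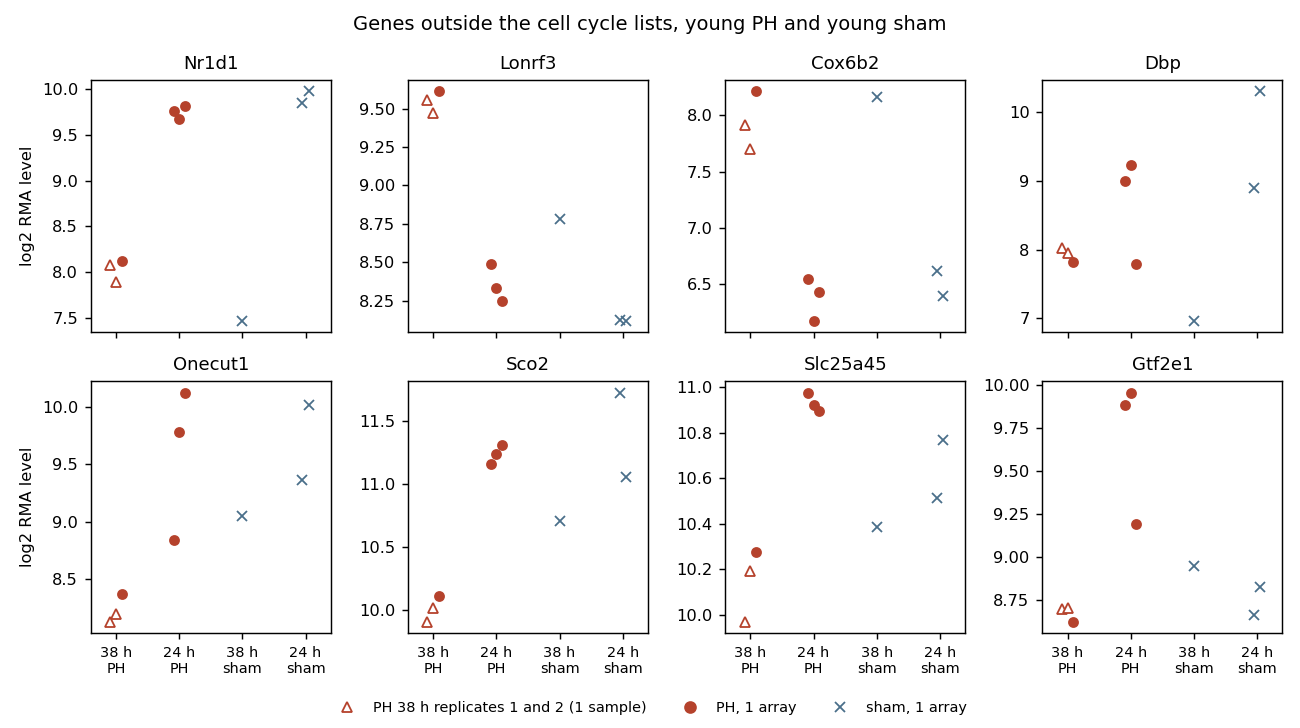
Log2 RMA level (vertical axis) of 8 genes in young livers at 38 and 24 h after PH and at 38 and 24 h after sham surgery (horizontal axis), 1 point per array; open triangles are the near-identical PH replicates 1 and 2 at 38 h. Nr1d1 is lower and Cox6b2 higher at 38 h after both operations (Cox6b2 after PH at 7.70 to 8.22 against 6.17 to 6.54), while Gtf2e1 lies at 8.95 at 38 h after sham, against 8.66 and 8.82 at 24 h.

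The test of the difference itself, the PH change minus the sham change, passed for 2 genes in the positive direction (0.011%) and 1 in the negative (0.0055%), with 1362 genes at an unadjusted p under 0.05. It rests on the single 38 h sham array, whose spread is taken to be that of the other groups. Haus8 differed by 1.19 (adjusted p = 0.0369), with a level of 7.31 at 38 h after sham, against 7.28 and 7.44 at 24 h. Pcbp4, an RNA-binding protein, measured 7.30 at 38 h after sham, against 8.54 and 8.23 at 24 h, while its PH arrays lay at 8.38 to 8.64 at 38 h and 8.14 to 8.23 at 24 h. Its difference was 1.42 (adjusted p = 0.00353). Car9, a membrane carbonic anhydrase, measured 8.45 at 38 h after sham, against 7.55 and 7.57 at 24 h, and its PH arrays overlapped, with a difference between the changes of -0.94 (adjusted p = 0.00353). Without 38 h PH replicate 3 or without 24 h sham replicate 1 the counts were 0 and 0. They were 1 and 1 without 24 h sham replicate 2, 2 and 2 without 24 h PH replicate 3, and 3 and 2 without 24 h PH replicate 1. Medians of the difference were 1.57 for the mitotic list and 1.40 for cytokinesis, in which 0 members passed. For Cdk1 it was 2.42 (adjusted p = 0.416), so that this test did not show a difference from sham for it.

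Outside the cell cycle and the clock, lists had few or no calls. In the p53 target list 1 of 20 members rose, Polk, a polymerase that copies past damaged bases (0.50 ± 0.13, adjusted p = 0.0496), and the list's median was 0.28. All 20 differences were above 0, the lowest 0.0004 for Sesn1. Arrays did not overlap, with 38 h higher, for 6 members, against 11.0% of all genes, and with 38 h lower for 0. In limma 6 members had an unadjusted p under 0.05, against 2070 of all 18193 genes. Polk did not pass without 38 h replicate 1 (adjusted p = 0.118), 38 h replicate 3 (0.205), 24 h replicate 2 (0.103) or 24 h replicate 3 (0.279), nor in 5 of the other settings, among them young arrays only and the replicate block. Of 24 hepatocyte transcription factors 1 fell, Onecut1, and the median was -0.13. Cebpa, a factor of mature hepatocytes, measured 11.77, 11.75 and 11.80 at 38 h, against 12.51, 12.38 and 12.47 at 24 h, without overlap (-0.67, adjusted p = 0.0769). Hnf4a (-0.14), Cebpb (0.03) and the fetal protein Afp (0.39) did not pass. Of 22 plasma proteins 0 passed, 0 had an unadjusted p under 0.05, and albumin (Alb) differed by -0.02. With 3 samples at 38 h as labelled the p53 list had 4 rises, and the hepatocyte factors and amino acid catabolism 2 and 2 falls.

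Signalling lists had 0 calls in limma: growth factor ligands (33 members, median -0.08), their receptors (33, median -0.14), immediate early genes (22, median 0.16), ribosome biogenesis (28, median 0.02), acute phase (27, median -0.08) and interferon response (26, median 0.00). Without 38 h replicate 3 the medians were 0.41 for immediate early genes and 0.24 for interferon response. Members lower at 38 h without overlap numbered 11 of 33 receptors and 9 of 28 ribosome biogenesis genes, against 14.5% of all genes. The members with the highest mean in these 6 lists were Igf1 (-0.23), Ghr (-0.40), Zfp36 (-0.28), Nop10 (0.14), Hp (-0.08) and Iigp1 (0.09), and they did not pass. Hgf (-0.17), its receptor Met (-0.01) and Egfr (-0.57), which carry mitogenic signals in regeneration, did not pass. Heat shock and ER chaperones had 0 calls of 32 and a median of -0.30, with 16 members lower at 38 h without overlap, among them the ER chaperones Hspa5 (-0.54) and Calr (-0.36). The means of that list overlapped, at 11.48, 11.51 and 11.20 at 38 h, against 11.51, 11.35 and 11.87 at 24 h, and without 24 h replicate 3 its median was -0.10. Metabolic lists also had 0 calls: fatty acid synthesis (22, median -0.09), fatty acid oxidation (26, median 0.13), glucose and glycogen (23, median -0.14), bile acids (25, median -0.14), P450 and phase II enzymes (30, median -0.03), antioxidant genes (19, median 0.10) and extracellular matrix (30, median -0.02). Members lower without overlap numbered 9 of 25 in bile acids and 8 of 23 in glucose and glycogen, and Cyp8b1, the sterol hydroxylase that leads to cholic acid, differed by -2.01. The members with the highest mean in these 7 lists were Scd1 (-0.34), Plin2 (0.13), Fbp1 (-0.11), Scp2 (-0.09), Gstp1 (0.06), Gpx1 (-0.06) and Fn1 (-0.22), and they did not pass. In each of these 14 lists 0 to 5 members had an unadjusted p under 0.05. Cyp7a1, the rate-limiting enzyme of bile acid synthesis, differed by -0.42 (SE 0.74) and Igfbp1, a fasting-induced binding protein of insulin-like growth factors, by 0.49 (SE 0.73).

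The cholesterol synthesis list (21 members, 0 calls in limma, 0 with an unadjusted p under 0.05, median 0.18) split the 38 h livers, with means of 11.08, 11.10 and 10.004 at 38 h, against 10.21, 10.33 and 10.50 at 24 h. Hmgcs1, which feeds that pathway, measured 13.76, 13.69 and 11.79 at 38 h, against 12.07, 12.05 and 12.48 at 24 h. The 38 h arrays thus lie on both sides of the 24 h arrays, and replicate 3, highest in the cell cycle lists, is the lowest here. Without it the list's median was 0.76.

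The 10 marker lists, of hepatocytes and of other cell types, had 0 calls in limma, with 0 to 2 members a list at an unadjusted p under 0.05. Neutrophil markers averaged 8.48, 8.52 and 7.73 at 38 h, against 7.94, 8.21 and 7.97 at 24 h, and S100a9 measured 10.68, 10.83 and 7.97 at 38 h, against 8.83, 9.59 and 8.66 at 24 h. Kupffer cell and macrophage markers averaged 9.82, 9.82 and 9.31 at 38 h, against 9.51, 9.83 and 9.10 at 24 h. Adipose markers averaged 8.02, 8.02 and 7.11 at 38 h, against 9.09, 7.62 and 7.48 at 24 h, highest in 24 h replicate 1. All of these overlap between the times, and replicate 3 has the lowest value of the 38 h arrays in each, opposite to the cell cycle lists. Median differences were 0.01 for stellate cell, 0.01 for endothelial, 0.06 for bile duct, -0.12 for lymphocyte, -0.05 for erythroid and -0.03 for pancreatic acinar markers, and -0.36 for adipose markers. Of the adipose markers 3 of 6 were lower at 38 h without overlap, against 14.5% of all genes. Adipoq, a hormone of fat cells, differed by -1.96. Among these lists Clec4g (0.45), Epcam (0.21), Alas2 (-0.31), Fabp4 (-1.08), Csf1r (-0.09), Dcn (-0.03) and Ighm (-0.05) had the highest mean of their list and did not pass. In the acinar list Cela1 differed by -1.10 and the other 7 members by -0.20 to 0.05. The part of these cells in the cell cycle results was not tested.

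Young livers at 48 h after PH show what followed. Relative to 38 h, 36 genes rose (0.198%) and 5 fell (0.0275%), and the comparison shares the 38 h arrays with the one above. With 3 samples at 38 h as labelled the counts were 190 and 40. They were 5 and 0 without 48 h replicate 1, 64 and 16 without 48 h replicate 2, 28 and 2 without 48 h replicate 3, and 42 and 12 without 38 h replicate 1. Over all 18193 genes, 1687 had an unadjusted p under 0.05 in either direction. Median differences at 48 h relative to 38 h were -0.31 for the replication fork, -0.14 for licensing and -0.33 for histones and chromatin. Each had 0 calls in limma. At an unadjusted p under 0.05, 8 of 30, 5 of 24 and 6 of 16 members were lower and 1, 2 and 1 higher. Medians were 0.17 for kinetochores, 0.33 for the mitotic list and 0.57 for cytokinesis. Of these, 0 of 34, 2 of 40 and 0 of 17 members rose. At an unadjusted p under 0.05, 7, 11 and 6 were higher and 0, 2 and 0 lower. The means of these 3 lists overlapped, in the mitotic list at 9.94, 9.68 and 10.12 at 48 h, against 9.13, 9.04 and 9.98 at 38 h, where replicate 3 lies among the 48 h arrays. Ccne2 measured 5.38, 5.11 and 5.24 at 0 h, 6.93, 7.53 and 5.95 at 24 h, 8.65, 8.33 and 8.58 at 38 h, and 6.07, 5.94 and 6.38 at 48 h. It fell by 2.41 at 48 h relative to 38 h (adjusted p = 0.00981), with no overlap. Wdr76 (-0.74), Itpka (-0.65), Egln1 (-0.43) and Samd1 (-0.42) were the other 4 genes that fell. Cdkn3, a phosphatase that acts on cyclin-dependent kinases, measured 6.998, 7.10 and 6.85 at 24 h, 7.58, 7.47 and 8.76 at 38 h, and 11.15, 10.44 and 10.53 at 48 h. Its rise of 2.56 at 48 h passed (adjusted p = 0.000751), while its difference of 1.16 between 38 and 24 h did not (adjusted p = 0.081). The centrosome kinase Nek2 rose by 1.47 at 38 h relative to 24 h and by 1.21 at 48 h. Its earlier rise did not pass with the median of its probe sets. Pttg1 (securin), which holds back chromatid separation, rose by 0.93 at 48 h, and its earlier difference of 0.42 did not pass. Nqo1, a quinone reductase, rose by 1.72 at 48 h (adjusted p = 0.0287).

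**Figure D4:**
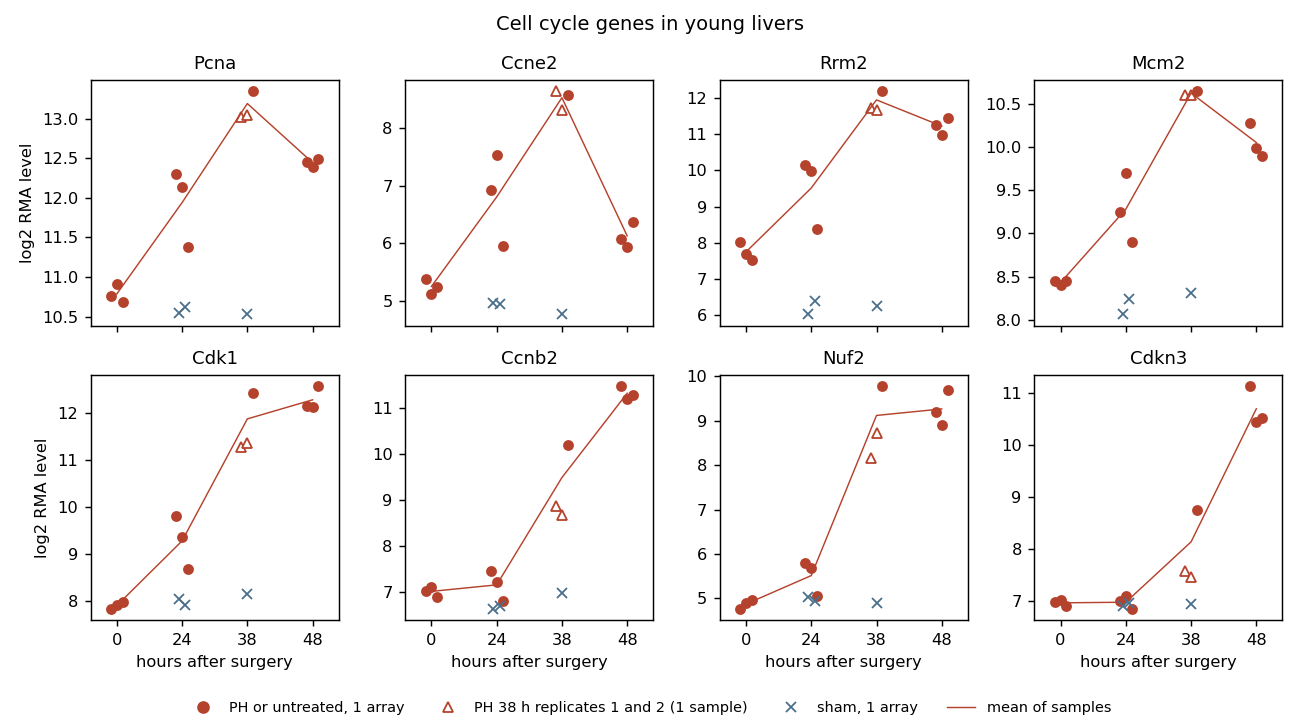
Log2 RMA level (vertical axis) of 8 cell cycle genes in young livers by hours after surgery (horizontal axis), 1 point per array, with lines through the means of samples; filled circles are untreated and PH arrays, open triangles the near-identical replicates 1 and 2 at 38 h, and crosses sham arrays. Ccne2 lies at 8.33 to 8.65 at 38 h and 5.94 to 6.38 at 48 h, while Cdkn3 lies at 7.47 to 8.76 at 38 h and 10.44 to 11.15 at 48 h.

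The same step was measured in old livers, where 139 genes rose (0.764%) and 211 fell (1.16%) at 38 h relative to 24 h after PH. Of the 285 genes that rose in young livers and the 139 in old ones, 13 rose in both, and 0 of the 285 fell in old livers. The median difference of the 285 genes was 0.98 in young livers, where they were called, and 0.41 in old ones. The change of 2 of them differed between the ages in limma. Median differences of the mitotic list were 1.57 in young and 0.75 in old livers, and of the replication fork list 0.78 in young and 0.43 in old livers. Old 38 h replicate 3 and old 24 h replicate 1 stood apart from their groups (median correlation with them 0.946 and 0.965), and had adipose marker means of 9.47 and 9.35, against 7.39 to 8.59 in the other old PH arrays at these times. Without both, the old medians were 1.11 for the mitotic list and 0.64 for the replication fork, and the part of the adipose markers was not tested. Old replicates at 38 h were far apart: Cdk1 measured 11.33, 9.47 and 8.19 at 38 h in old livers, against 7.66, 7.53 and 8.25 at 24 h. The young change minus the old change passed for 2 genes, both positive (0.011%, with 0.0% negative and 2518 genes at an unadjusted p under 0.05). Haus8 measured 7.98, 7.57 and 7.94 at 38 h in old livers, against 8.04, 8.03 and 8.21 at 24 h (difference between ages 1.41, adjusted p = 0.000215). Lonrf3 measured 8.72, 8.17 and 8.18 at 38 h in old livers, against 8.60, 8.74 and 8.63 at 24 h (difference 1.51, adjusted p = 0.00637). In both genes the young 38 h arrays lie above all old arrays of either time. The positive and negative counts depended on single arrays: they were 292 and 153 without old 38 h replicate 3, 65 and 43 without old 24 h replicate 3, 37 and 4 without old 38 h replicate 1, 22 and 2 without old 24 h replicate 1 and 13 and 2 without young 38 h replicate 3. With 3 young samples at 38 h as labelled they were 48 and 19.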

How the data were processed

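Livers were measured on 35 arrays in 14 groups. The authors deposited log2 RMA signals per probe set, per the submitters' processing notes, with the RMA version not given in the sources used here. RMA equalises arrays, so a shift shared by all genes would not be seen. Arrays have no counts, and their number limits the precision. Of 45101 probe sets, 34958 had 1 gene symbol in the platform table, 932 had several and 9211 were not listed. Leaving out control probe sets, 34945 were used, for 18193 genes, each represented by its probe set with the highest mean. Symbols were updated by Entrez identifier.

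Group means were fitted with limma 3.58.1 in R 4.3.3 (lmFit, eBayes) with Benjamini-Hochberg adjustment over all genes, on 34 samples in 14 groups with 20 residual degrees of freedom. The design called for 35 samples, but replicates 1 and 2 at 38 h after PH differed no more in variable genes than in all genes (ratio of SDs 1.07, against 1.97 to 3.16 in other pairs) and were averaged. In data simulated for the comparison of 38 h with 24 h after PH over 18193 genes, 91% of 2-fold and 99% of 4-fold shifts were called. The simulated spread was normal and that of each gene over all groups, with randomly chosen genes shifted. These shares thus do not carry over to genes whose replicates vary widely. In the livers Cyp8b1 differed by -2.01 and did not pass, so not passing does not mean a change under 2-fold.

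The members and the 40 gene lists were chosen with earlier results of these data known. Genes were named by rule: the 12 largest rises and 12 largest falls that passed without overlap of arrays, up to 3 passing members of each list with the largest change (otherwise the member with the highest mean), a panel of 25 genes, and genes that passed a difference between changes. Cdkn3, Nek2, Pttg1, Nqo1, Wdr76, Itpka, Egln1, Samd1, Cox6b2, Lingo1 and other list members given with a single value were named after their values were seen. Of the genes the rule chose, 1 is counted but not reported here. Promoter sequences are RefSeq's (GRCm38.p6), held here for 14452 genes tested. Replicate numbers did not pair the samples. Alternatives covered probe set choice, a filter at log2 5, centring, quantile normalization, trend and robust prior, weights per array, which arrays enter, a replicate block, 3 samples at 38 h as labelled, and each array left out. Tables were handled with pandas 2.3.3 in Python 3.11.15 and figures drawn with matplotlib 3.10.9.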

Additional observations from a re-analysis of the deposited data

Results flagged for a closer look

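The change between 24 and 38 h differed between PH and sham livers for 3 genes in limma's test of the difference. The difference was 1.42 for Pcbp4 (adjusted p = 0.00353) and lay at 1.24 to 1.57 over 21 settings, of which 18 passed. Haus8 gave 1.19 (adjusted p = 0.0369) and lay at 1.05 to 1.28 over 21 settings, of which 16 passed. For Car9 it was -0.94 (adjusted p = 0.00353) and lay at -1.05 to -0.86 over 21 settings, of which 18 passed. Of the 3 genes, Haus8 alone rose after PH, and the sham side of each difference is 1 array at 38 h against 2 at 24 h.

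The change differed between young and old livers after PH for 2 genes. Lonrf3 gave 1.51 (adjusted p = 0.00637) and lay at 1.41 to 1.69 over 24 settings, of which 23 passed, and Haus8 gave 1.41 (adjusted p = 0.000215) and lay at 1.27 to 1.49 over 24 settings, of which 23 passed.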

How the results depend on the processing

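Using each probe set tested alone, the counts were 176 lower for 38 h against 24 h after PH, 34 higher and 21 lower for sham, 2 lower for PH minus sham and 9 lower for 48 h against 38 h. With the median of a gene's probe sets, the counts were 98 lower for 38 h against 24 h after PH, 2 lower for PH minus sham and 9 lower for 48 h against 38 h. Using median-centred arrays, the counts were 37 lower for 38 h against 24 h after PH and 9 higher for young minus old. With quantile normalization, the counts were 44 higher and 15 lower for sham, 1 lower for young minus old and 21 higher for 48 h against 38 h. Using array weights, the counts were 434 higher and 135 lower for 38 h against 24 h after PH, 65 higher and 60 lower for sham, 60 higher and 10 lower for PH minus sham, 451 higher and 243 lower for young minus old and 62 higher and 16 lower for 48 h against 38 h. With young arrays only, the counts were 190 lower for 38 h against 24 h after PH, 33 higher and 40 lower for sham, 43 higher and 4 lower for PH minus sham and 162 higher and 50 lower for 48 h against 38 h. Using arrays of the compared groups only, the counts were 45 higher and 21 lower for 38 h against 24 h after PH, 112 higher and 178 lower for sham, 0 higher and 0 lower for PH minus sham, 0 higher for young minus old and 1 higher and 2 lower for 48 h against 38 h. With the 2 outlying old arrays left out, the counts were 483 higher and 205 lower for 38 h against 24 h after PH, 28 higher and 39 lower for sham, 44 higher and 4 lower for PH minus sham, 154 higher and 66 lower for young minus old and 225 higher and 59 lower for 48 h against 38 h. Using the replicate block, the counts were 41 lower for 38 h against 24 h after PH and 1 higher for PH minus sham. With 3 samples as labelled at 38 h, the counts were 152 lower for 38 h against 24 h after PH, 48 higher and 19 lower for young minus old and 190 higher and 40 lower for 48 h against 38 h. Leaving out 1 array gave 8 to 325 higher and 0 to 98 lower for 38 h against 24 h after PH, 1 to 1 higher and 0 to 1 lower for sham, 0 to 3 higher and 0 to 2 lower for PH minus sham, 2 to 292 higher and 0 to 153 lower for young minus old and 5 to 64 higher and 0 to 16 lower for 48 h against 38 h. Settings and contrasts not listed stayed within 1.5 times the reported count. The alternative with young arrays only was not run for young minus old.

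Same-numbered 38 h and 24 h arrays had correlated deviations of 0.08, 0.01 and 0.13, and the replicate block called 308 genes, of which 298 are among the 347 called without it. All 58 named genes that passed kept their direction under every alternative. Of named genes that did not pass, 10 changed sign. Iigp1 differed by -0.07 to 0.384 with 1 array left out. Alb differed by 0.0096 with centring and 0.037 with quantile normalization. Scp2 differed by 0.141 with each probe set alone. Csf1r differed by -0.265 to 0.115 with 1 array left out. Dcn differed by 0.007 with centring and -0.239 to 0.0262 with 1 array left out. Ighm differed by 0.487 with each probe set alone, 0.0106 with median probe set, 0.0357 with the replicate block, 0.0094 with 3 samples as labelled and -0.15 to 0.135 with 1 array left out. Cebpb differed by -0.0109 with 3 samples as labelled and -0.0926 to 0.0901 with 1 array left out. Per2 differed by -0.192 with each probe set alone and -0.0108 to 0.171 with 1 array left out. Met differed by 0.0228 with centring and -0.0506 to 0.0212 with 1 array left out. Car9 differed by -0.125 to 0.0283 with 1 array left out. The cause was not tested for any of these moves. With 2 samples at 38 h, Ccnd1 had an SE of 0.55 for its difference of 0.91.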
